A study of Mus musculus with 8 samples.

Results

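The Twist, Snail and Zeb factors are transcription factors of mesenchymal cells, and the E-proteins are the partners that Twist factors dimerize with. The genes described here were taken by name from the deposited table of protein-coding genes: Twist1, Twist2, Snai1, Snai2, Zeb1, Zeb2 and the E-protein genes Tcf3, Tcf4 and Tcf12. All 9 were found, each in a single row, among 22053 rows. RNA was sequenced from 4 libraries of candidate vertebral skeletal stem cells (vSSC, from spine) and 4 libraries of long bone skeletal stem cells (lbSSC, from femur and tibia). All mice were wild type and at postnatal day 10, each site had 2 male and 2 female libraries, and both sites were sorted as CD31-, TER119-, CD45-, Thy-, 6C3-, CD105- and CD200+ cells. The number of animals behind a library is not given in the labels, so the p-values rest on the spread between libraries, which may be partly technical.

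Twist and E-proteins are basic helix-loop-helix (bHLH) proteins that bind E-box DNA, CANNTG, as dimers. Snail and Zeb factors are zinc finger proteins that bind the E-boxes CACCTG and CAGGTG and repress epithelial genes such as Cdh1, the gene of E-cadherin. Id proteins are helix-loop-helix proteins without a DNA-binding region, and they hold E-proteins in inactive dimers. In skeletal tissue Twist1 and Twist2 restrain the osteoblast factor Runx2 in mice, Snai1 acts below Fgfr3 in mouse growth plate chondrocytes, and loss of one copy of TWIST1 or TCF12 leads to early fusion of the cranial sutures in humans.

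In vertebral cells Snai1 and Twist1 were higher and Zeb2 and Tcf4 lower than in long bone cells, while Snai2, Twist2, Zeb1, Tcf3 and Tcf12 did not pass the test. Thus 4 of the 9 genes were called, 2 in each direction, where 23.5% of the 10729 tested genes were called, 14.3% higher and 9.17% lower in vSSC. Counts of called genes in the lists below are to be read against these shares. The vSSC and lbSSC values did not overlap for 2 of the 9, both higher in vSSC, where this was so for 25.8% of all tested genes, 15.8% above and 9.99% below. None of these 4 calls held under every alternative, and what ended each is given with the gene. Levels are FPKM values, which are scaled to the length of the transcript as well as to the library. Comparisons between genes are still approximate, since the 9 genes have from 1 (Snai1) to 62 (Tcf4) annotated transcripts. A difference is the vSSC mean minus the lbSSC mean of log2(FPKM + 1), given ± SE, with Benjamini-Hochberg adjusted p-values from limma over all tested genes. These are bulk samples, in which fewer cells of a type and less RNA per cell cannot be told apart.

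Between 10337 and 10753 genes per library reached 1 FPKM. The gate gene Cd200 averaged 109.3 ± 22.5 FPKM in vSSC and 101.0 ± 28.1 FPKM in lbSSC, and Pecam1, Ptprc, Thy1 and Eng averaged under 1 FPKM at both sites. Enpep, which encodes 6C3, averaged 0.319 FPKM in vSSC and 1.22 in lbSSC. The summed FPKM of 13 osteoblast genes lay between 3267 and 3903 in vSSC and between 9455 and 13506 in lbSSC. This sum was led by the collagen genes Col1a2 (1771 FPKM in vSSC, 5939 in lbSSC) and Col1a1 (723.4 FPKM in vSSC, 4093 in lbSSC). Of the 12 tested, 4 were lower in vSSC and 2, the osteoblast factors Sp7 and Dlx5, were higher, and the part of this list in the results on the 9 genes was not tested. Replicates 1 and 3 of vSSC had the highest ribosomal share and the fewest long genes above 0. Ribosomal protein genes took 21.2% and 21.4% of their summed FPKM, against 19.5% and 18.3% in vSSC replicates 2 and 4. In lbSSC replicates 1 to 4 the share was 18.4%, 17.9%, 15.7% and 15.7%, so the lbSSC libraries differed as well. Of 1666 long genes with a single transcript, 793 and 836 were above 0 in vSSC replicates 1 and 3. In the other vSSC libraries 893 and 946 were, and in lbSSC 941 to 999. Each called gene of the 9 is therefore also given without both vSSC replicates 1 and 3. No lbSSC libraries were left out together. Ribosomal share went largely with site, since only vSSC replicate 4 lay below an lbSSC library, replicate 1. A fit that includes this share cannot fully separate it from site. The median difference of all tested genes was 0.08 as deposited and -0.04 after each library was rescaled to one sum.

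The order of the levels was led by Snai1 at both sites. In vSSC it went on with Snai2, Twist1, Tcf4, Tcf12, Tcf3, Zeb1, Twist2 and Zeb2, and neighbours from Snai2 to Tcf12 overlapped between libraries, as did Zeb1 and Twist2. In lbSSC Tcf4 came after Snai1 and was followed by Snai2, Tcf12, Twist1, Tcf3, Zeb1, Twist2 and Zeb2. There the ranges of Snai1, Tcf4 and Snai2 overlapped between neighbours, as did those of Tcf12 and Twist1 and those of Zeb1, Twist2 and Zeb2. Tcf3 overlapped no neighbour at either site, with all Tcf3 values between 11.9 and 13.7 FPKM.

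**Figure D1:**
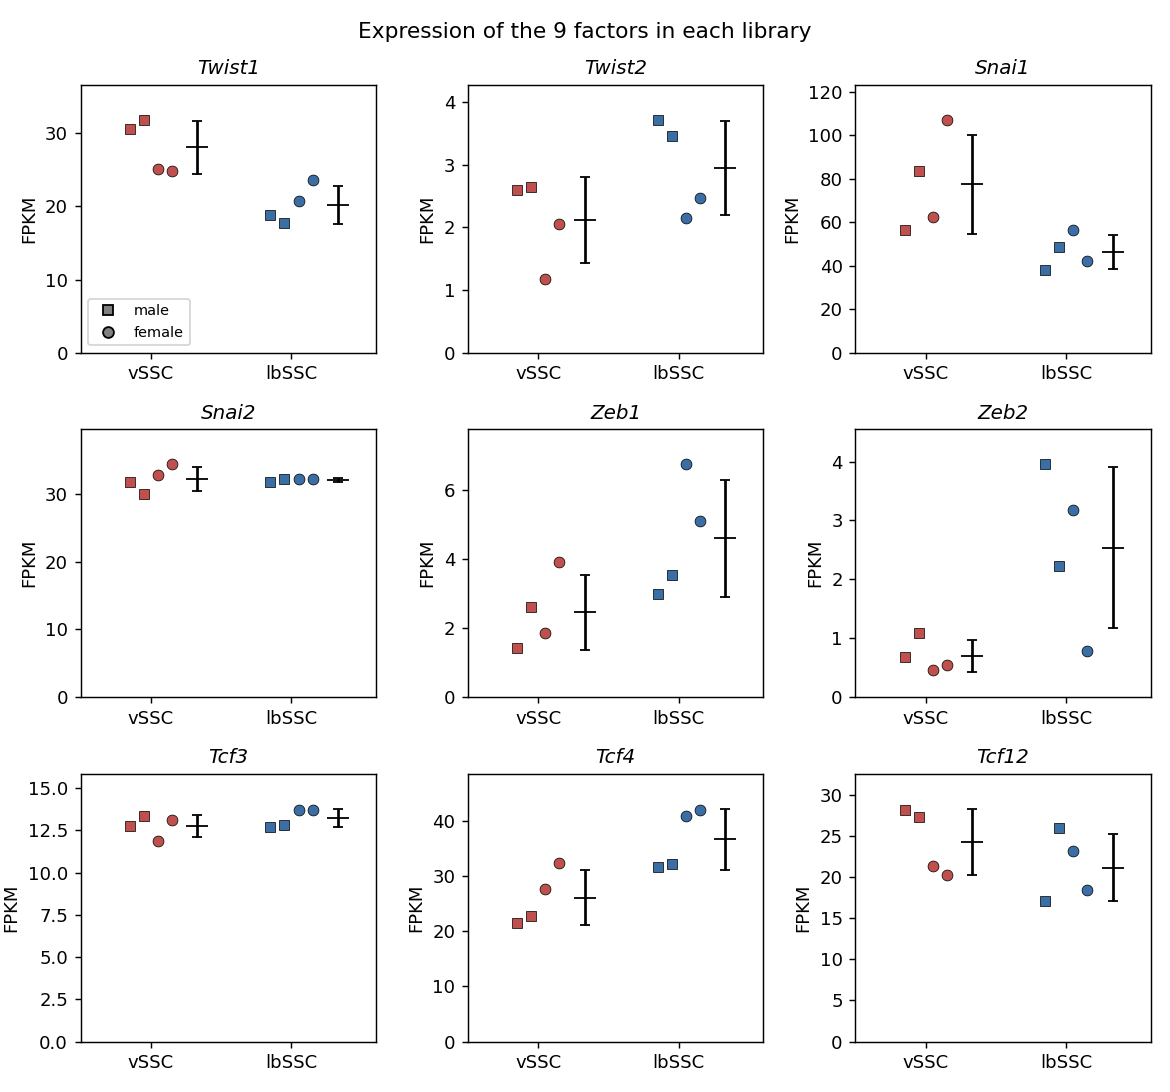
Expression of the 9 genes in FPKM (vertical axes, linear, from 0) in 4 vSSC libraries (red, left) and 4 lbSSC libraries (blue, right), with squares for male and circles for female libraries and black bars for mean ± SD. The vSSC points of Twist1 and Snai1 all lie above the lbSSC points, those of Tcf4, Zeb1 and Zeb2 lie lower with 1 or more libraries overlapping, and Snai2 and Tcf3 stay within narrow bands.

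The promoter windows of the genes that were higher in vSSC are shown first, since these genes moved in the same direction. They are RefSeq windows on GRCm38.p6 from 250 bases before to 50 bases after the start, on the plus strand, with E-boxes (CANNTG, the same on both strands) in capitals. The Snai1 window is chr2:167537945-167538244 and the Twist1 window is chr12:33957421-33957720.
Snai1: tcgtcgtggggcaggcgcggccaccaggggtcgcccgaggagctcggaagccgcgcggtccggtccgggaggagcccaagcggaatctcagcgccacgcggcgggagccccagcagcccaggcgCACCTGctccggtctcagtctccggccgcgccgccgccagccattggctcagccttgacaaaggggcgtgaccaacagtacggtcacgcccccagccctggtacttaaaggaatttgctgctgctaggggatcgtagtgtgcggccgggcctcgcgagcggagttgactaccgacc
Twist1: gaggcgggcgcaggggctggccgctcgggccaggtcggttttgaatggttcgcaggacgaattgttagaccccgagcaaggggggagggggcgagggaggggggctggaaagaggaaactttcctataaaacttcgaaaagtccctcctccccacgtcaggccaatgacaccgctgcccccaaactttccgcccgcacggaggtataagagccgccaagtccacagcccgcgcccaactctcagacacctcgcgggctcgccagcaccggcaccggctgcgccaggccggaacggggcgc
Snai1 held 1 E-box, CACCTG, the form that Snail and Zeb factors bind, with its first base at position -126 from the start. CACCTG or its reverse complement CAGGTG occurred in 20.2% of 32851 windows of this length, and any CANNTG in 72.3%. The Twist1 window held no CANNTG. Windows of Twist2, Zeb2, Tcf3 and Tcf12 were also searched, and none of them held CACCTG or CAGGTG. Such matches describe the letters only.

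Twist1, whose product directs mesenchymal and cranial development, was at 30.6, 31.8, 25.1 and 24.8 FPKM in vSSC replicates 1 to 4, against 18.8, 17.7, 20.7 and 23.6 FPKM in lbSSC. Every vSSC library lay above every lbSSC library, though the female libraries of the sites came close. The means were 28.1 ± 3.65 FPKM in vSSC and 20.2 ± 2.58 in lbSSC (SD, n = 4 each), a ratio of 1.39 and a difference of 0.46 ± 0.13 (adjusted p = 0.0264). The gene lies on chromosome 12 at 33957671 to 33959817 (GRCm38). The call ended under each other scaling, with a difference of 0.36 after median-of-ratios scaling (adjusted p = 0.0766), 0.32 after quantile normalization (0.138) and 0.31 after rescaling to one sum (0.132). It also ended without both vSSC replicates 1 and 3 (0.47, adjusted p = 0.0974), as it did once ribosomal share was added to the fit (0.58, adjusted p = 0.120). Leaving out a single library ended it for vSSC replicate 1 (adjusted p = 0.0693) or 2 (0.0738) and for lbSSC replicate 1 (0.0559), 2 (0.0649) or 3 (0.0581). Its direction held throughout.

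Twist2, the close relative of Twist1, was at 2.59, 2.65, 1.17 and 2.06 FPKM in vSSC and at 3.72, 3.46, 2.16 and 2.46 FPKM in lbSSC. The groups overlapped, and within each site the 2 male libraries lay above the 2 female ones. The difference was -0.35 ± 0.20, with a 95% interval from -0.80 to 0.10 (adjusted p = 0.229). An antisense gene, Gm29100, covers 1477 of the 3174 exonic bases of Twist2, and the library kit named in the labels does not mark the strand, so reads of the pair cannot be told apart.

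Within single libraries the Twist family was mostly Twist1. Twist1 made up 92.2%, 92.3%, 95.5% and 92.4% of the summed FPKM of Twist1 and Twist2 in vSSC, against 83.5%, 83.6%, 90.6% and 90.5% in lbSSC. All vSSC libraries lay above all lbSSC libraries in this share, which does not depend on the scaling between libraries. Twist1 itself did not overlap, so the share is not a result apart from it, and its Twist2 part may hold reads of Gm29100. The lbSSC male libraries had the lowest shares of all.

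Snai1, a repressor induced by many growth factor signals, had the highest level of the 9 genes. It was at 56.6, 83.3, 62.4 and 107.0 FPKM in vSSC, against 38.2, 48.5, 56.4 and 42.3 FPKM in lbSSC. The groups did not overlap, but the lowest vSSC and the highest lbSSC library were almost level. The means were 77.3 ± 22.9 FPKM in vSSC and 46.3 ± 7.92 in lbSSC (SD, n = 4 each), a ratio of 1.67 and a difference of 0.70 ± 0.19 (adjusted p = 0.0234). The gene lies on chromosome 2 at 167538195 to 167542814. The call ended with a difference of 0.60 after median-of-ratios scaling (adjusted p = 0.0550), 0.49 after quantile normalization (0.134) and 0.55 after rescaling to one sum (0.0880).

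The vSSC libraries with the highest ribosomal share, replicates 1 and 3, were those with the lower Snai1 levels. Without both, the difference was 1.03 (adjusted p = 0.00479), and it was 1.27 in a fit that included ribosomal share (adjusted p = 0.00617). The call ended when vSSC replicate 2 (adjusted p = 0.0606), lbSSC replicate 1 (0.0522) or lbSSC replicate 4 (0.0637) was left out, and when genes under the filter were also tested (0.0634). Chondrocyte genes, 14 in number, summed to 24557 and 28140 FPKM in vSSC replicates 2 and 4, against 17627 and 17928 in vSSC replicates 1 and 3, and between 19736 and 31325 in lbSSC. This sum was led by Col2a1, at 7443, 13426, 7528 and 15067 FPKM in vSSC replicates 1 to 4. Not all genes of the list followed the sum. Hapln1 (1974, 1696, 2087 and 1791 FPKM) and Matn3 (1527, 1391, 1605 and 1499 FPKM) were higher in vSSC replicates 1 and 3 than in 2 and 4. Of the 14 tested, 2 (Matn3 and Hapln1) were higher in vSSC and 1 (Matn1) lower. The part of this list in the result was not tested.

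Snai2, which encodes Slug, the second Snail factor of this set, was at 31.7, 30.03, 32.8 and 34.4 FPKM in vSSC and at 31.7, 32.2, 32.2 and 32.2 FPKM in lbSSC. The lbSSC libraries differed from each other by a factor of 1.02, the narrowest range of the 9 genes at either site. The difference between sites was 0.01 ± 0.09, with a 95% interval from -0.20 to 0.21 (adjusted p = 0.973), and its sign changed under each other scaling. Snai1 took 64.1%, 73.5%, 65.5% and 75.7% of the summed FPKM of Snai1 and Snai2 in vSSC, against 54.6%, 60.1%, 63.7% and 56.7% in lbSSC. All vSSC shares lay above all lbSSC shares, by little for vSSC replicate 1 and lbSSC replicate 3. Snai1 itself did not overlap and Snai2 was nearly level, so this share largely repeats the Snai1 levels.

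**Figure D2:**
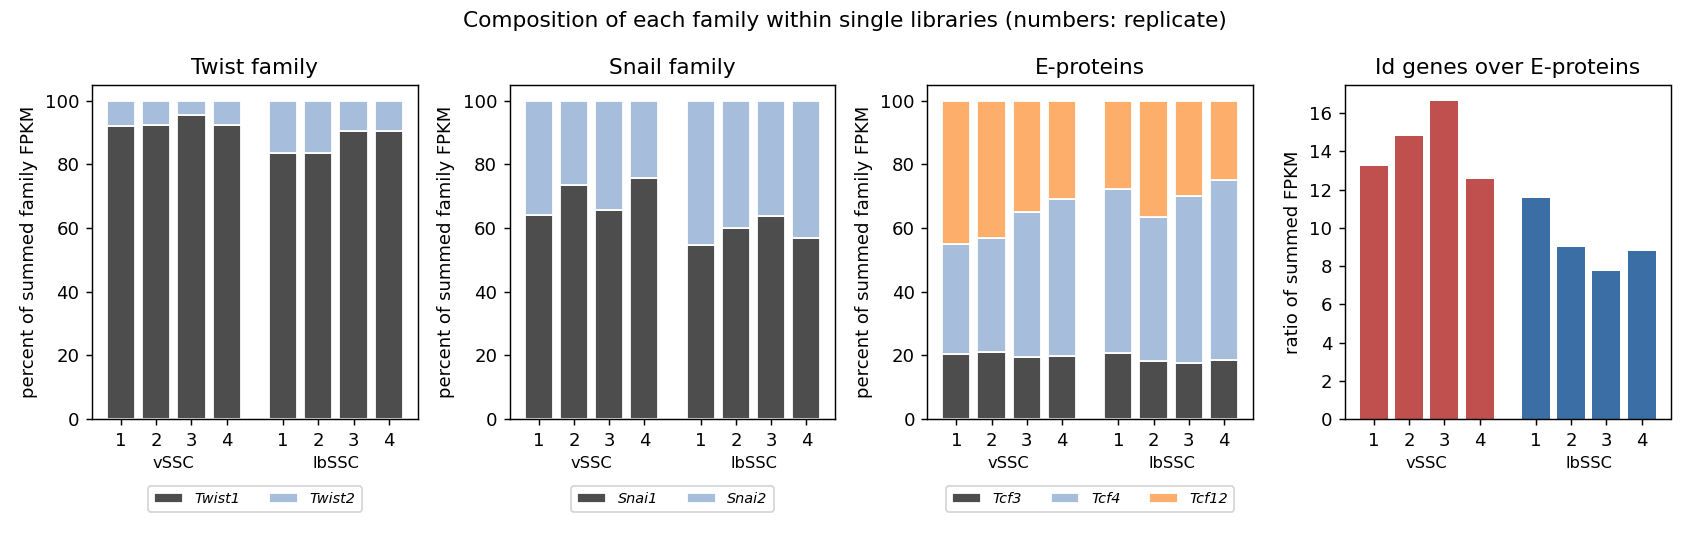
Shares of each gene in the summed FPKM of its family (first 3 panels, percent) and the ratio of the summed FPKM of Id1 to Id4 to that of Tcf3, Tcf4 and Tcf12 (last panel), for vSSC replicates 1 to 4 and lbSSC replicates 1 to 4. Twist1 and Snai1 took larger shares in each vSSC library than in any lbSSC library, and the Id ratio lay between 12.5 and 16.6 in vSSC and between 7.75 and 11.6 in lbSSC.

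The Zeb genes were expressed at low levels. Zeb2, which represses epithelial genes and acts in neural crest and Schwann cells, was at 0.684, 1.08, 0.466 and 0.547 FPKM in vSSC, against 3.95, 2.23, 3.19 and 0.781 FPKM in lbSSC. In lbSSC 3 libraries lay above all vSSC libraries, and replicate 4 lay among the vSSC values. The means were 0.695 ± 0.275 FPKM in vSSC and 2.54 ± 1.37 in lbSSC (SD, n = 4 each), a ratio of 0.274 and a difference of -0.98 ± 0.28 (adjusted p = 0.0282). Zeb2 passed the filter on low values with exactly the 4 libraries needed, 3 of them from lbSSC, so the test reached it mostly through the site where it is high. The gene lies on chromosome 2 at 44983632 to 45117395, and its antisense partner Zeb2os shares 653 of its 19942 exonic bases.

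The call of Zeb2 held under the 3 other scalings (-0.90 to -1.05). It ended when both vSSC replicates 1 and 3 were left out (-0.88, adjusted p = 0.156), and likewise once ribosomal share was in the fit (-1.30, adjusted p = 0.150). It also ended when genes under the filter were tested with the rest (adjusted p = 0.0708). Single libraries whose removal ended it were vSSC replicates 1 (adjusted p = 0.0564) and 3 (0.0715) and lbSSC replicates 1 (0.0646), 2 (0.0512) and 3 (0.0834). Without lbSSC replicate 4 the difference was -1.27 (adjusted p = 0.00270).

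Zeb1, the other Zeb factor, was at 1.42, 2.61, 1.85 and 3.92 FPKM in vSSC and at 2.98, 3.54, 6.73 and 5.11 FPKM in lbSSC. Only vSSC replicate 4 reached into the range of lbSSC. The difference was -0.70 ± 0.25 (adjusted p = 0.0659), short of the threshold, with a 95% interval from -1.26 to -0.14. It passed when sex was in the fit (adjusted p = 0.0333), when vSSC replicate 4 was left out (-0.89, adjusted p = 0.0213) and when lbSSC replicate 1 was left out (-0.85, adjusted p = 0.0406). Including ribosomal share turned the difference to 0.20 (adjusted p = 0.741). The summed FPKM of Zeb1 and Zeb2 was at most 4.47 in vSSC and at least 5.77 in lbSSC, so that no library of one site reached the other.

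Myeloid and Schwann cells also express Zeb2. The summed FPKM of 12 myeloid genes, led by S100a8, was between 223.6 and 366.3 in vSSC and between 24.5 and 106.0 in lbSSC, and 4 of the 5 tested were higher in vSSC. Its macrophage gene Csf1r averaged 0.0688 FPKM in vSSC and 0.114 in lbSSC. Itgam, another gene of this list, averaged 0.339 FPKM in vSSC and 0.747 in lbSSC, and Mpo did not pass (adjusted p = 0.991). The sum of 8 neural and Schwann genes, led by S100b, was between 121.6 and 146.5 in vSSC and between 92.4 and 114.2 in lbSSC, and 3 of the 4 tested were higher in vSSC. S100b itself averaged 114.1 FPKM in vSSC and 103.0 in lbSSC and did not pass (adjusted p = 0.302). Sox10, a factor of neural crest and Schwann cells, averaged 0.690 FPKM in vSSC and 0.519 in lbSSC. The part of these cells in the Zeb2 levels was not tested.

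Among the E-proteins Tcf4, also called E2-2, was lower in vertebral cells. It was at 21.6, 22.7, 27.6 and 32.4 FPKM in vSSC, against 31.6, 32.1, 40.8 and 41.9 FPKM in lbSSC. The groups overlapped only in that vSSC replicate 4 lay above lbSSC replicates 1 and 2. The means were 26.1 ± 4.98 FPKM in vSSC and 36.6 ± 5.53 in lbSSC (SD, n = 4 each), a ratio of 0.713 and a difference of -0.48 ± 0.15 (adjusted p = 0.0397). The gene lies on chromosome 18 at 69343356 to 69689079.

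The call of Tcf4 held under the 3 other scalings (-0.58 to -0.64) and in the fit with sex (adjusted p = 0.00628). It ended when both vSSC replicates 1 and 3 were left out (-0.41, adjusted p = 0.196). In the fit with ribosomal share the difference was -0.10 (adjusted p = 0.852). Leaving out vSSC replicate 1 (adjusted p = 0.106), 2 (0.0982) or 3 (0.0643) ended it, as did leaving out lbSSC replicate 3 (0.112) or 4 (0.108). It also ended when genes under the filter were tested (adjusted p = 0.0751) and when no variance trend was fitted (0.0559). Plasmacytoid dendritic cells and B cells also use E-proteins. The summed FPKM of 11 of their genes, led by Cd79a and Ebf1 in vSSC, was between 18.6 and 36.1 in vSSC and between 8.55 and 18.03 in lbSSC, 4 of the 5 tested were higher in vSSC, and Siglech was listed at 0 in every library. The part of such cells in the Tcf4 levels was not tested.

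Tcf3, which encodes E2A, was at 12.8, 13.3, 11.9 and 13.1 FPKM in vSSC and at 12.7, 12.8, 13.7 and 13.7 FPKM in lbSSC. The groups overlapped, the difference was -0.05 ± 0.10 and the 95% interval ran from -0.28 to 0.18 (adjusted p = 0.760). Its sign changed (0.07) once ribosomal share was in the fit. Tcf12, which encodes HEB, was at 28.1, 27.3, 21.3 and 20.2 FPKM in vSSC and at 17.1, 25.9, 23.1 and 18.4 FPKM in lbSSC. These groups overlapped as well (0.19 ± 0.16, 95% interval from -0.15 to 0.54, adjusted p = 0.389).

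The 3 E-protein genes summed to 62.4, 63.3, 60.8 and 65.8 FPKM in vSSC, against 61.5, 70.8, 77.6 and 74.0 FPKM in lbSSC. Tcf4 made up 34.6%, 35.9%, 45.4% and 49.3% of that sum in vSSC, against 51.4%, 45.3%, 52.6% and 56.7% in lbSSC, and the groups overlapped in this share. Tcf12 made up 45.0%, 43.0%, 35.1% and 30.7% in vSSC, against 27.9%, 36.6%, 29.8% and 24.8% in lbSSC. In the male vSSC libraries Tcf12 was the most abundant E-protein transcript, and in the other 6 libraries it was Tcf4. Relative to Tcf4, Twist1 stood at 1.42, 1.40, 0.906 and 0.766 in vSSC, against 0.594, 0.552, 0.507 and 0.562 in lbSSC. These groups did not overlap, but the ratio sets a gene called higher over a gene called lower. Relative to Tcf12, Twist1 stood at 1.09, 1.17, 1.17 and 1.23 in vSSC, against 1.10, 0.683, 0.897 and 1.28 in lbSSC. Those groups overlapped.

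The symbols Tcf3 and Tcf4 have also been used for Wnt effectors, whose genes are Tcf7l1 and Tcf7l2 and which are separate rows here. Tcf7l1 averaged 7.24 ± 1.38 FPKM in vSSC and 9.76 ± 2.91 FPKM in lbSSC, differing by -0.36 ± 0.20 (adjusted p = 0.205). Tcf7l2 averaged 2.84 ± 1.74 FPKM in vSSC and 5.24 ± 1.79 FPKM in lbSSC, differing by -0.75 ± 0.32 (adjusted p = 0.107).

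**Figure D3:**
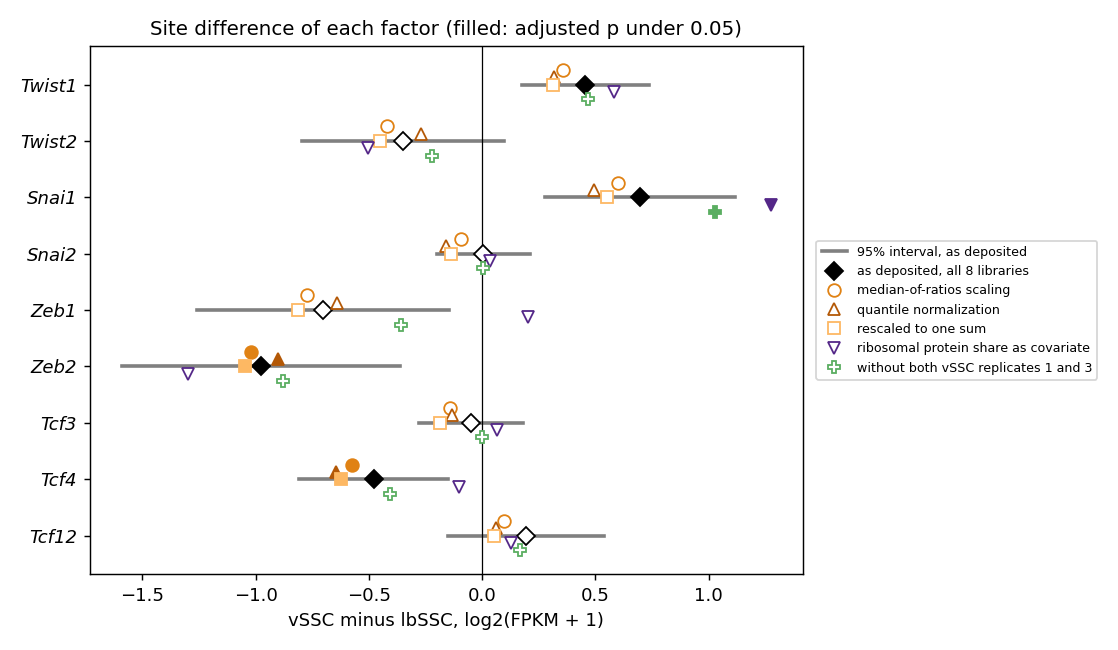
Site difference of each gene, vSSC minus lbSSC in log2(FPKM + 1) (horizontal axis), with the 95% interval of the fit on the values as deposited (grey) and the estimate under 5 alternatives. Filled symbols have an adjusted p under 0.05. Snai1 and Twist1 stay right of 0 throughout but are not filled under the 3 other scalings, and Zeb2 and Tcf4 stay left of 0 and are not filled with the ribosomal share or without vSSC replicates 1 and 3.

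Sex was compared with site as a covariate. None of the 9 genes was called by limma, where 0.0466% of all tested genes were, and 3 had an unadjusted p under 0.05, where 8.31% of all tested genes did. Tcf4 had means of 22.1 FPKM in males and 30.04 in females in vSSC and of 31.8 FPKM in males and 41.4 in females in lbSSC (male minus female -0.39 ± 0.10, unadjusted p = 0.00218, adjusted p = 0.413). Twist2 averaged 2.62 FPKM in males and 1.62 in females in vSSC, and 3.59 in males and 2.31 in females in lbSSC (0.48 ± 0.15, unadjusted p = 0.00949, adjusted p = 0.517). Zeb1 averaged 2.01 FPKM in males and 2.89 in females in vSSC, and 3.26 in males and 5.92 in females in lbSSC (-0.52 ± 0.21, unadjusted p = 0.0324, adjusted p = 0.585). For Tcf4 and Twist2 the sexes did not overlap within either site, but these differences did not pass the adjustment. With 2 libraries per sex at each site such separation is weak evidence, and its share over all tested genes was not computed.

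Of the 10729 genes tested, 0 had a called interaction of site and sex by limma (0%), and 3.77% had an unadjusted p under 0.05. Of the 9 genes only Twist1 had such a p. Its male libraries averaged 31.2 FPKM in vSSC and 18.2 in lbSSC and its female libraries 24.9 FPKM in vSSC and 22.1 in lbSSC. The site difference was thus larger in males by 0.58 ± 0.21 (unadjusted p = 0.0213, adjusted p = 0.981), which did not pass the adjustment.

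For each called gene, the 3 tested genes with the closest profile over the 8 libraries were found by the root mean square distance of log2(FPKM + 1) values centred on the gene's mean. For Twist1 they were Nceh1, Naa40 and Pex26 (distances 0.09, 0.09 and 0.10). For Snai1 they were Lrrc23, Chad, a cartilage matrix protein, and Vdr, the vitamin D receptor (0.17 each). Zeb2 was closest to Cdh2, the gene of N-cadherin (0.25), followed by Dapk2 (0.26) and Hp (0.27). Tcf4 was closest to Jazf1, Zc3hav1l and Zim1 (0.08, 0.10 and 0.10). The distances of Snai1 and Zeb2 were larger than those of Twist1 and Tcf4.

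The Id genes, whose products bind E-proteins, were led by Id1, Id2 and Id3, each more abundant than any E-protein gene at both sites. Of the 4 genes 2 were higher in vSSC, against 14.3% of all tested genes. Id1 was at 360.0, 405.2, 464.3 and 378.5 FPKM in vSSC, against 266.5, 223.1, 202.1 and 249.0 FPKM in lbSSC, with no overlap (0.77 ± 0.12, adjusted p = 0.00109). Id1 was called under all 19 alternatives. Id2 averaged 231.6 ± 26.2 FPKM in vSSC and 180.4 ± 8.47 in lbSSC, and it differed by 0.35 ± 0.11 (adjusted p = 0.0351). This call held in 6 of 19 alternatives. Id3 (0.23 ± 0.12, adjusted p = 0.176) and Id4 (-0.33 ± 0.13, adjusted p = 0.0878) did not pass. The summed FPKM of the 4 Id genes was 13.2, 14.8, 16.6 and 12.5 times that of the E-protein genes in vSSC, against 11.6, 8.98, 7.75 and 8.76 times in lbSSC. This ratio sets a sum with Id1, called higher, over a sum with Tcf4, called lower.

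Other tissue-restricted bHLH factors that pair with E-proteins were mostly at or near 0. Of 28 listed genes, 13 were listed at 0 in every library, among them the muscle factors Myod1 and Myf5, and 5 were tested. Of these 1 was higher and 3 lower in vSSC, where 14.3% of all tested genes were higher and 9.17% lower. Atoh8 averaged 9.80 ± 2.02 FPKM in vSSC and 5.65 ± 0.355 in lbSSC, and it rose by 0.68 ± 0.15 (adjusted p = 0.0100). Hand2, a factor of the limb bud and heart, was listed at 0 in 3 vSSC libraries and at 0.0631 FPKM in the fourth, against a mean of 2.32 ± 0.622 FPKM in lbSSC (-1.69 ± 0.17, adjusted p = 6.89e-05). Hand2 and Lyl1 (-0.62 ± 0.18, adjusted p = 0.0296) passed the filter through lbSSC alone, so a called difference could only be in this direction. Tal1, which like Lyl1 acts in blood cells, averaged 1.09 ± 0.485 FPKM in vSSC and 3.38 ± 1.77 in lbSSC with overlap (adjusted p = 0.0254). The calls of Tal1 and Lyl1 held in 12 and 11 of 18 alternatives. The sum of 6 red cell genes, led by Hbb-bs, was between 3797 and 5348 FPKM in vSSC and between 4240 and 8742 in lbSSC, and its part in Tal1 and Lyl1 was not tested. Scx, a tendon factor, did not pass (-0.15, adjusted p = 0.542). Of the Snail relatives, Scrt1 was listed at 0 in every library and Scrt2 averaged 0 FPKM in vSSC and 0.00439 in lbSSC.

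Epithelial genes that Snail and Zeb factors repress were close to absent at both sites. Of 30 listed genes, 23 stayed under 1 FPKM in every library and 3 of them were listed at 0 throughout. Cdh1 was at 0.236, 0.608, 0.0252 and 0.120 FPKM in vSSC and at 0.0513, 0.120, 0.115 and 0.0231 FPKM in lbSSC. Where 14.3% of all tested genes were higher and 9.17% lower, 2 of the 5 tested here were higher in vSSC and none lower. These were Cldn3, a tight junction claudin that passed the filter through vSSC alone (2.16 ± 0.487 FPKM in vSSC, 0.698 ± 0.111 in lbSSC, 0.89 ± 0.16, adjusted p = 0.00270), and Lsr, a receptor at tricellular junctions (0.55 ± 0.16, adjusted p = 0.0281), whose call held in 10 of 18 alternatives. Summed over all 30, FPKM lay between 9.07 and 15.5 in vSSC and between 11.5 and 14.0 in lbSSC.

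Genes of mesenchymal cells were mostly lower in vSSC where they differed. Of 25 tested genes, a list that holds Twist1 and Snai2 themselves, 9 were lower and 2, Twist1 and Prrx2, higher. Over all tested genes 9.17% were lower and 14.3% higher. The median difference of the list was -0.24 against 0.08 for all tested genes. Cdh2 was at 1.98, 2.11, 1.25 and 1.38 FPKM in vSSC, against 5.43, 5.90, 6.30 and 3.01 FPKM in lbSSC, with no overlap (-1.18 ± 0.21, adjusted p = 0.00229). Cdh11, the cadherin of osteoblastic and synovial cells, averaged 5.25 ± 0.836 FPKM in vSSC and 11.8 ± 1.40 in lbSSC, and it differed by -1.04 ± 0.14 (adjusted p = 0.000435). The collagen receptor Ddr2 (-0.67 ± 0.12) and the growth factor receptor Pdgfra (-0.90 ± 0.17) were also lower. Vim, the gene of vimentin, averaged 246.6 ± 23.5 FPKM in vSSC and 213.0 ± 17.2 in lbSSC and did not pass (0.21 ± 0.11, adjusted p = 0.169). The count of lower genes was 3 when ribosomal share was in the fit and 6 without both vSSC replicates 1 and 3, and it stayed 9 under the 3 other scalings, where 1 gene was higher.

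**Figure D4:**
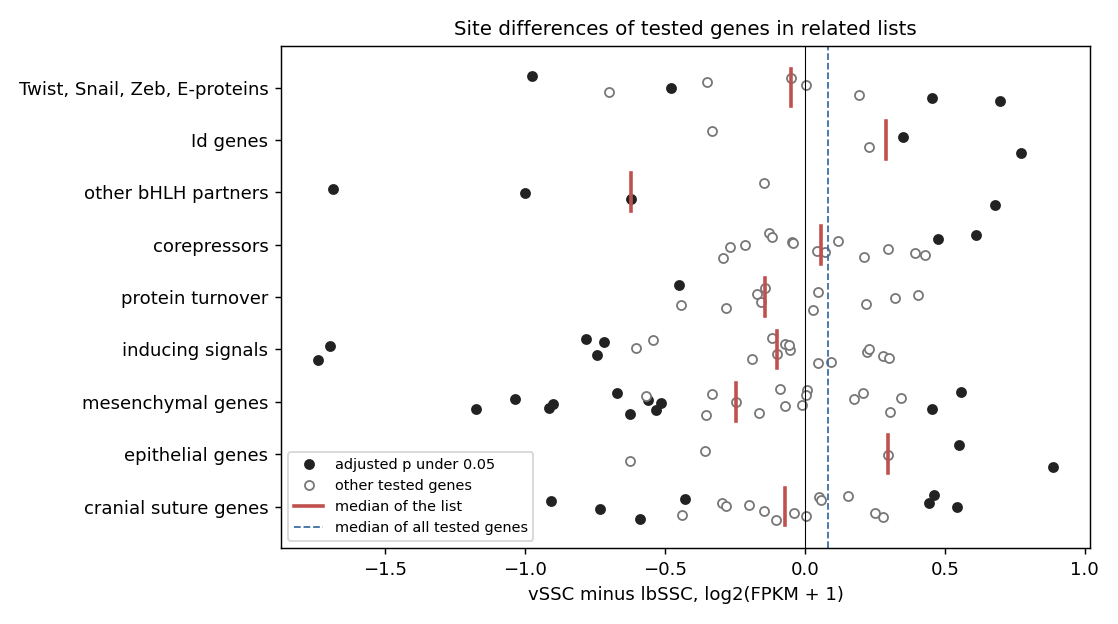
Site differences, vSSC minus lbSSC in log2(FPKM + 1) (horizontal axis), of the tested genes in 9 lists, with genes of adjusted p under 0.05 in black, other tested genes open, list medians in red and the median of all tested genes dashed. Mesenchymal genes and inducing signals hold more black points left of 0, and both called Id genes lie right of it.

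Signals that induce these factors were lower where they were called. Of 19 tested inducers 5 were lower in vSSC and none higher (median -0.10), against 9.17% lower and 14.3% higher over all tested genes. Etv5, which FGF signalling induces, differed by -1.74 ± 0.17 (adjusted p = 5.31e-05) and the ligand Bmp4 by -1.70 ± 0.16. The ligands Tgfb2 (11.7 ± 1.69 FPKM in vSSC, 20.2 ± 2.28 in lbSSC, -0.74 ± 0.13) and Tgfb3 (14.7 ± 1.90 FPKM in vSSC, 26.0 ± 3.85 in lbSSC, -0.78 ± 0.14) were lower as well. Ctnnb1, Smad4 and Wwtr1 did not pass, but each had every vSSC library above every lbSSC library, as 15.8% of all tested genes had. With ribosomal share in the fit 2 genes of this list were lower and 1 higher. With no filter on low values 5 were lower and 1 higher.

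Among 16 tested corepressors that Snail and Zeb proteins recruit, 2 were higher in vSSC and none lower (median 0.06). That count is near the share over all tested genes, 14.3% higher. Hdac1, a histone deacetylase, averaged 28.0 ± 1.65 FPKM in vSSC and 19.9 ± 2.59 in lbSSC, and it differed by 0.48 ± 0.12 (adjusted p = 0.0145). Eed, a Polycomb subunit, differed by 0.61 ± 0.18 (adjusted p = 0.0325). Neither was called in the fit with ribosomal share or in that without both vSSC replicates 1 and 3. Of 11 tested genes that act on the stability of these proteins 1 was lower, near the 9.17% lower over all tested genes. Gsk3b, the kinase that marks Snai1 protein for degradation, averaged 4.49 ± 0.669 FPKM in vSSC and 6.47 ± 0.536 in lbSSC. This was a difference of -0.45 ± 0.14 (adjusted p = 0.0363), a call that held in 9 of 19 alternatives.

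Among 20 tested genes tied to cranial suture fusion, as Twist1 and Tcf12 are, 3 were higher and 4 lower in vSSC (median -0.07). The shares over all tested genes were 14.3% higher and 9.17% lower. Fgfr1 averaged 52.2 ± 10.6 FPKM in vSSC and 98.1 ± 15.3 in lbSSC, and it differed by -0.91 ± 0.16 (adjusted p = 0.00197). Fgfr3 went the other way, at 79.1 ± 5.85 FPKM in vSSC and 57.1 ± 4.87 in lbSSC, and it differed by 0.46 ± 0.10 (adjusted p = 0.00882). Il11ra1, a receptor of interleukin 11, differed by -0.43 ± 0.11 and Por, the reductase of cytochrome P450 enzymes, by 0.45 ± 0.12. Adding ribosomal share to the fit left 1 gene of this list lower and none higher, and removing both vSSC replicates 1 and 3 left 2 lower and 1 higher.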

How the data were processed

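Bulk RNA-seq libraries of sorted cells were compared, 4 vSSC and 4 lbSSC, grouped by sample title. The labels' protocols name SMART-Seq v4 for cDNA and Nextera XT for the libraries, neither of which marks the strand. The tools STAR 2.5.2, Cufflinks 2.1.1 and bcl2fastq 2.19 and the build GRCm38 are named per the submitters' processing notes. Each deposited value is an FPKM that the authors computed for a protein-coding gene. Low values of long single-transcript genes showed no clean steps of single fragments, so the depth is unknown, no counting interval is given, and precision rests on the replicates. Of 22007 identifiers, 98.9% matched GENCODE M21, and 1 was added to the table's starts.

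After transformation to log2(FPKM + 1), 10729 genes that reached 1 FPKM in 4 or more libraries, all 9 genes described included, were fitted in R 4.3.3 with limma 3.58.1 (variance trend) and called at an adjusted p under 0.05. The procedure was tested on simulated data. Shares and ratios within a library and gene list counts are descriptions with no test. The 9 genes, lists and alternatives were chosen with earlier results of these data known. The text names these 9, Id1 to Id4, Cdh1, Cdh2, Vim, Tcf7l1, Tcf7l2 and up to 4 called genes of each list with the smallest p. Other genes named (Scx, Myod1, Myf5, Scrt1, Scrt2, Ctnnb1, Smad4, Wwtr1, gate genes and markers) illustrate counts or their limits. Replicate numbers were not used to pair libraries. Alternatives were a pseudocount of 0.1, no filter, a filter at 5 FPKM, no variance trend, the 3 other scalings named with the results, sex, ribosomal protein share or replicate number as a further term, and fits with libraries left out.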

Additional observations from a re-analysis of the deposited data

Results flagged for a closer look

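Each of the 9 genes was examined at both sites, 18 groups of 4 libraries, for a library far from the others. Snai2 in lbSSC stood out, and chance alone marks about 1 in 20 groups. lbSSC replicate 1 was at 31.7 FPKM and the next library at 32.2, a gap of 0.880 of the group's whole log2 range against a critical value of 0.829. The range itself was the narrowest of the 9 genes at either site.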

How the results depend on the processing

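Of the 9 genes described, 4 were called as deposited. The count was 1 with no filter on low values, 2 under each of median-of-ratios scaling, rescaling to one sum and quantile normalization, 1 when ribosomal share was in the fit and 1 without both vSSC replicates 1 and 3. With single libraries left out it ran from 1 to 5. The count over all genes, 2518, was 623 with the ribosomal protein share and 1095 without both vSSC replicates, and ran from 1534 to 2991 with single libraries left out. Leaving out vSSC replicate 1 gave 1673, vSSC replicate 3 gave 1646, lbSSC replicate 3 gave 1534 and lbSSC replicate 4 gave 1589. The share of calls that were higher in vSSC was 60.9% as deposited, 49.5% with median-of-ratios scaling, 49.4% with quantile normalization, 42.4% with one sum, and 38.0% with the ribosomal share. The causes were not tested.

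Over 19 alternatives (18 for Zeb2, which a filter at 5 FPKM leaves out), the call held in 9 for Twist1 (adjusted p from 0.0205 to 0.138), in 12 for Snai1 (0.00479 to 0.134), in 10 for Zeb2 (0.00270 to 0.156) and in 10 for Tcf4 (0.00628 to 0.852), and their directions held throughout. With single libraries left out, each of these calls held in 3 of 8 fits for Twist1, 5 for Snai1, 3 for Zeb2 and 3 for Tcf4. Signs turned for Snai2 with quantile normalization (-0.16), with rescaling (-0.14) and with median-of-ratios scaling (-0.092), and with single libraries left out it ran from -0.025 to 0.038. With the ribosomal share they turned for Zeb1 (0.20), Tcf3 (0.067), Tcf7l1 (0.048) and Tcf7l2 (0.36). Same-numbered libraries of the sites did not deviate together in every pair (correlations of 0.26, -0.09, -0.06 and 0.44). Libraries of the same number also share their sex, so these correlations cannot show whether the numbers pair them. With the replicate block 5 of the 9 and 3194 of all genes were called, Zeb1 being the added one. None of the 9 was called by sex or by the interaction under any alternative run. Unknown depth limits Zeb1, Zeb2 and Twist2 most.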
